A study of Mus musculus with 6 samples.

Results

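The genes of the *Nxf1* congenic interval are those with an alternative RNA processing event lying wholly on chromosome 19 between 7053631 and 11866235, in the positions of the deposited array table. They numbered 42 of the 7788 genes in the table, with 70 of its 13002 events. The bounds are the outer ends of events in *Fkbp2* and *Stx3*, genes that the study took to gel assays, and the CAST segment may run further on either side. Positions are as the table gives them, on a genome build not given in the sources used here. None of the 41 genes with a RefSeq symbol had its events within the gene of that name on GRCm38.p6, so the table follows another build, and no position was moved between them.

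Total RNA came from whole brain of 6 mice of the B6.CAST congenic line, 1 array per mouse. In this line a piece of chromosome 19 from CAST, a wild-derived strain of *Mus musculus castaneus*, was bred onto C57BL/6J (B6), and every animal was homozygous at *Nxf1*. Genotype B (3 mice) carried the B6 allele and genotype C (3 mice) the CAST allele, as 2 female littermate pairs and 1 male pair of opposite genotype. Both mice of pair 1, a female pair of generation N37F1, were 46 days old. The other pairs were of generation N36F2: in the male pair 2 the genotype B mouse was 22 and the genotype C mouse 23 days old, and both mice of the female pair 3 were 23 days old. The labels name no transgene and no agent. Genotype at *Nxf1*, the CAST or B6 copy of every other gene in the segment, and the match of array probes to CAST sequence changed together between the groups, so their parts in any difference here cannot be told apart.

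The Affymetrix MJAY array has probe sets for both paths of an event. In exclusion a segment is left out of the mature RNA, and in inclusion it is kept. For alternative starts, alternative ends and complex events these labels need not mean a segment left out or kept. The table lists 1 whole-number intensity for each path in each of its sets, A and B, already pooled over mice, so there is no value per mouse, no error and no test, and every value below is a description of these pooled sets. The sets are not named by genotype. From the header, which defines its score as mutant over wild type, and from the Methods, which put *Nxf1* CAST over *Nxf1* B6, set B was likely genotype C and set A likely genotype B. The log2 ratio given here is exclusion over inclusion in set B, over the same quotient in set A. A value above 0 means relatively more of the path labelled exclusion in set B, so its sign need not mean the same in every type of event. Values marked A and B, or given as a pair, are those of set A and set B in that order. Intensities of different probe sets cannot be set against each other, and a path brighter than the other is not thereby the commoner form. As a coarse check of tissue, which the brightness of each probe set also enters, the 8 brain markers with an event on the array, among them *Snap25*, *Mbp* and *Camk2a*, each reached an intensity over 1000, with highest values from 1621 to 12087. The 3 markers of other tissues with an event reached 257 to 667 (*Ins2*, *Myh6* and *Ptprc*).

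*Nxf1* encodes the main receptor that carries mRNA out of the nucleus, and its CAST allele is known as a modifier of genes with certain retroviral insertions in their introns. The segment around it is rich in genes. Its neighbours include RNA polymerase and splicing factors, membrane fusion proteins of the synapse, fatty acid desaturases, genes of the ciliary base and the large *Ms4a* family of leukocyte membrane proteins. In a congenic mouse such neighbours travel with the selected allele, so each can carry its own strain differences in exons, splice sites and regulatory sequence. *Nxf1* itself had 0 events in the table, and its level was not measured here. RefSeq lists 123 protein-coding genes in order from *Fkbp2* to *Stx3* on GRCm38.p6, and 40 of them had an event.

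Of the 70 events, 6 had an absolute log2 ratio over 0.5, about 1.41-fold. They lay in *Tmem138*, *Cybasc3*, *Stx3*, *Snhg1*, *Polr2g* and *Ahnak*, 1 event in each gene. Over the whole table the share past that size was 7.34% (950 of 12948 events with values), against 8.57% in the interval. For these ratios, with no filter on their error, the interval's share thus lay near the background. On the rest of chromosome 19 it was 7.58% (27 of 356 events), and over the chromosomes, the interval left out, it ran from 5.57% to 10.2%. The study's own call on these arrays used a separation score with a false discovery rate, neither of which was used here. By that call the congenic interval held a larger part of the significant sites than of all events. The nearness to the background thus holds only for the ratios given here. All 6 ratios were above 0 and none was below -0.5. Among events with a direction in the whole table, 567 (4.51%) were above 0.5 and 342 below -0.5. On the rest of chromosome 19 these counts were 18 and 8, so the larger ratios leaned above 0 there too. Just inside the threshold stood *Polr2g* at 0.54 and *Ahnak* at 0.53, and just outside it *Bscl2* events at 0.49 and 0.39. In all 6 events the inclusion path was lower in set B, and in 5 of them the exclusion path was also higher. The exception was *Snhg1*, where both paths were lower. Picking events by a ratio above 0.5 favours these directions by definition. Over all 70 events inclusion was lower in set B in 55.7%, against 53.0% of the table. Exclusion was higher in 58.6%, against 52.5% of the table.

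**Figure D1:**
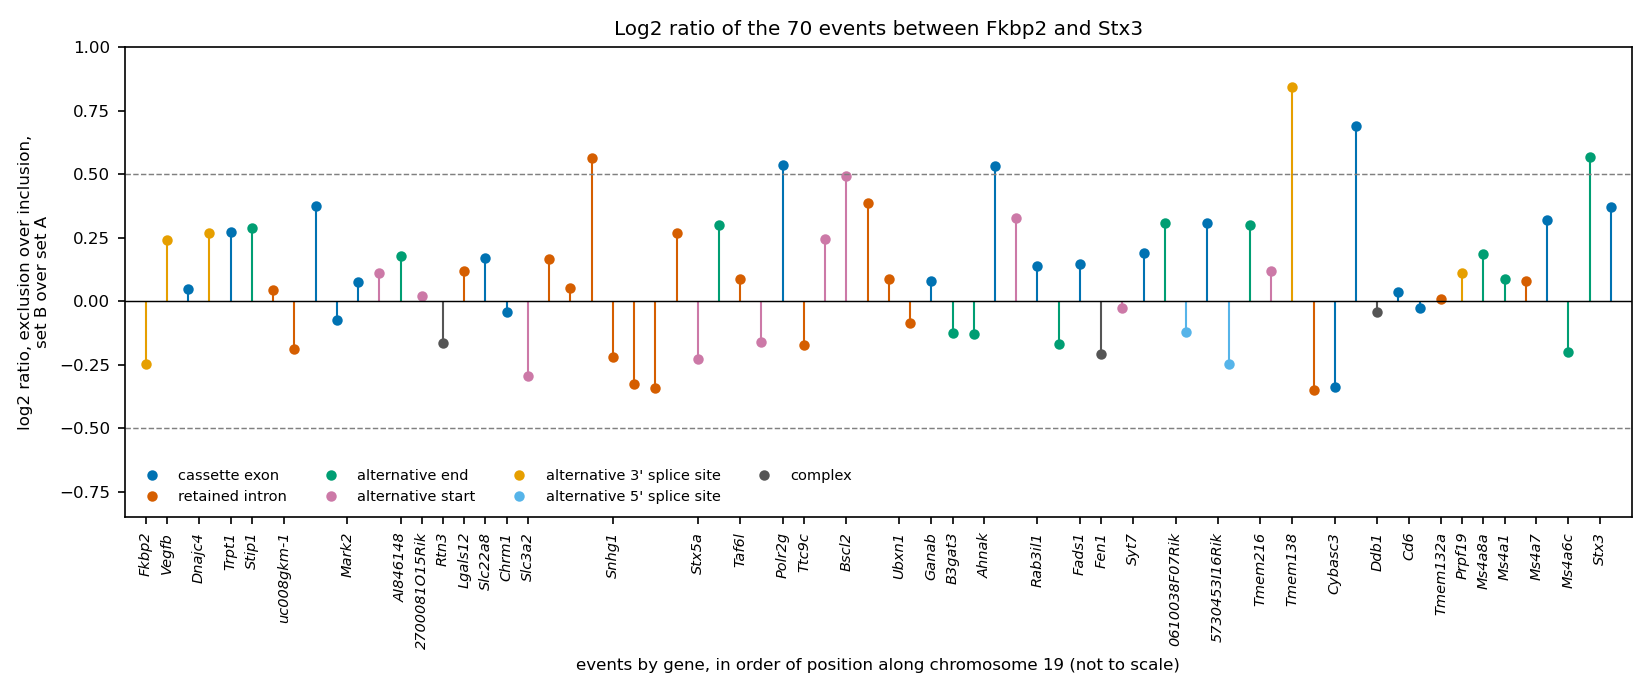
Log2 ratio (exclusion over inclusion, set B over set A) of each of the 70 events, placed in order along chromosome 19 and grouped by gene, with colour for the type of event and dashed lines at 0.5 and -0.5. The 6 events past the lines are all above 0 and lie in *Snhg1*, *Polr2g*, *Ahnak*, *Tmem138*, *Cybasc3* and *Stx3*, while events of smaller size fall on both sides of 0.

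Over all sizes, 45 of the 70 ratios were above 0 and 25 below, a share above 0 of 64.3%. The same share was 55.9% on the rest of chromosome 19 and 55.3% over the table, and over the chromosomes it ran from 53.2% to 57.9%. The chromosomes held 332 to 1095 events each outside the interval, so their shares scatter less than a share of 70 events. The median log2 ratio was 0.09 in the interval and 0.03 over the table. Sizes differed less: the median absolute log2 ratio was 0.19 in the interval, 0.18 on the rest of the chromosome and 0.18 over the table. Events of a gene share exons and probes, so they are not independent, and 17 of the 42 genes had more than 1 event. In 5 of those 17 (*Bscl2*, *Dnajc4*, *Ms4a7*, *Stx3* and *Tmem216*) every ratio was above 0, and in the other genes the ratios lay on both sides.

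By type, the interval held 20 cassette exons, 18 retained introns, 12 alternative ends, 10 alternative starts, 5 alternative 3' splice sites, 3 complex events and 2 alternative 5' splice sites. Cassette exons, internal exons that are kept or skipped whole, were above 0 in 16 of 20 cases. Their median was 0.16, against 0.04 for the 3763 cassette exons of the table. The share above 0 over the table was counted for all types together (55.3%) and not by type. Counts above 0 by type thus have no like share beside them. Of the 20, 13 had a length that is a multiple of 3, so that skipping them keeps the reading frame where they are coding, against 1990 of the 3738 cassette exons of the table with a length in their name. Of these 13, 10 were above 0, and so were 6 of the 7 with other lengths. Retained introns, in which exclusion means that the intron was spliced out, were above 0 in 11 of 18 cases with a median of 0.05, equal to that of all 1064 retained introns at this precision. The 2 alternative 5' splice sites and the 3 complex events were all below 0.

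The highest ratios of the interval came from neighbouring genes, *Tmem138* and *Cybasc3*. *Tmem138* encodes a membrane protein of the ciliary transition zone, the gate at the base of the cilium. Its event is an alternative 3' splice site at 10649425 to 10649729 that adds or leaves out 72 nucleotides. From set A to set B the exclusion intensity went from 521 to 653, and the inclusion intensity from 316 to 221. The quotient of exclusion over inclusion thus went from 1.65 to 2.96, a log2 ratio of 0.84 or 1.79-fold, at rank 91 of 12948 events by size. Both paths took part, with exclusion 1.25-fold higher and inclusion 1.43-fold lower in set B. The added segment is a multiple of 3. The primers the study designed for a gel assay of this event are shown to identify the transcript with the highest ratio, and no band from them was analysed here.
*Tmem138* primer 1: tccgaatggctcctgttatc
*Tmem138* primer 2: aagctgctggagtttttcca

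*Cybasc3*, named *Cyb561a3* in RefSeq, encodes a lysosomal cytochrome b561 that uses ascorbate to reduce iron. Its cassette exon of 209 nucleotides, within 10656966 to 10661201, had exclusion at 423 (A) and 601 (B). Inclusion was 1194 (A) and 1051 (B), which gave a log2 ratio of 0.69 (1.61-fold, rank 227). Skipping it would shift the reading frame where it is coding, as 209 is not a multiple of 3. Its other events went the opposite way and held the lowest ratio of the interval. For a retained intron of 168 nucleotides the spliced path was 149 and 102 and the retained path 410 and 358 in sets A and B, with a log2 ratio of -0.35. For a cassette exon of 93 nucleotides exclusion was 278 and 244 and inclusion 482 and 534, with a log2 ratio of -0.34. Within this gene, then, relatively more skipping of the 209-nucleotide exon in set B stood beside relatively more of the 93-nucleotide exon and of the 168-nucleotide intron.

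In RefSeq *Tmem138* and *Cyb561a3* lie head to head, on the minus and plus strand, and their promoter windows (250 bases before to 50 after the start) overlap by 161 bases for the pair of starts described here. The *Cyb561a3* window at chr19:10577198-10577497 of GRCm38.p6, plus strand, is printed because it covers part of the shared stretch between the genes with the highest ratios. Capitals mark TATAAA, the classic TATA box letters, searched on both strands. That motif was present in 13.6% of the 32851 RefSeq promoter windows, and no CCAAT (37.4%) or GGGCGG (35.7%) was found in this window. It held 18 CpG dinucleotides, against a median of 7 over all windows.
*Cyb561a3* promoter: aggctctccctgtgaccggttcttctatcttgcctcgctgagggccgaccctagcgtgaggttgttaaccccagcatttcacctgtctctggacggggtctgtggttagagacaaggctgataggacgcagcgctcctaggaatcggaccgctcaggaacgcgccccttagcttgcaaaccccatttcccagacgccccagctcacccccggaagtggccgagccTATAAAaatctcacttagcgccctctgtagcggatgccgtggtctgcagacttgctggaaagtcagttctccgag

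The other ciliary gene, *Tmem216*, also works at the transition zone and lies beside *Tmem138*. Its alternative end had exclusion at 80 (A) and 99 (B) and inclusion at 242 and 243, for a log2 ratio of 0.30 with inclusion nearly level. Its alternative start was at 0.12, with intensities from 68 to 118. All 3 events of the ciliary genes were thus above 0, as were 64.3% of all interval events and 55.3% of the table. The *Tmem216* intensities were among the lowest of the interval, which ran from 51 to 3308.

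**Figure D2:**
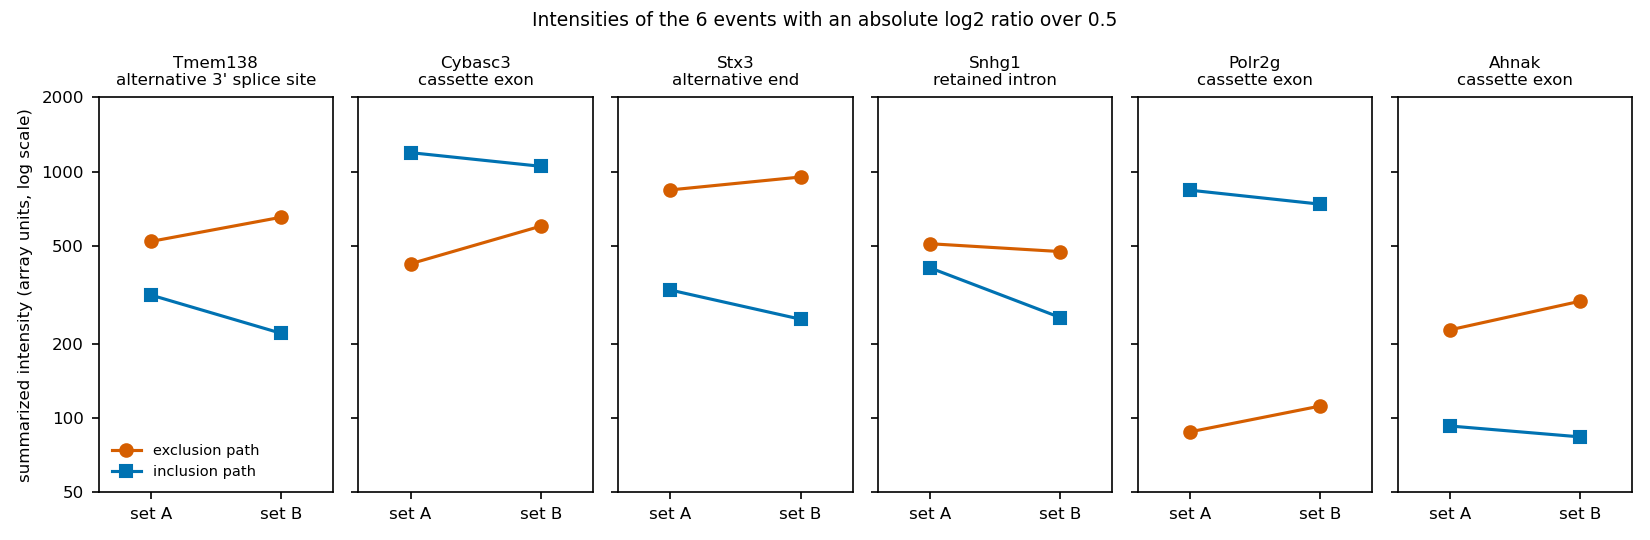
Summarized intensity (array units, log scale) of the exclusion path (circles) and the inclusion path (squares) in set A and set B for the 6 events with an absolute log2 ratio over 0.5, 1 pooled value per point and so no error bars. The inclusion path is lower in set B in each panel, and the exclusion path is higher in set B in every panel but that of *Snhg1*.

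Among the 7 genes of transcription and RNA processing, with 16 events, 2 events were past 0.5, 11 ratios were above 0 and 5 below. *Snhg1* held 7 of the events. It is a host gene whose exons form a non-coding RNA and whose introns carry small nucleolar RNAs (snoRNAs), which guide the modification of ribosomal RNA, and RefSeq places 8 snoRNA genes within it. Its 7 events are all retained introns and did not move together. At the intron of 173 nucleotides, at 8799536 to 8799711, the retained path went from 407 in set A to 256 in set B and the spliced path from 510 to 474. That is a log2 ratio of 0.56 (1.48-fold), in which the retained path was 1.59-fold lower and the spliced path nearly level. The next highest ratio of the gene was 0.27, at the intron of 134 nucleotides (spliced 1725 and 1716, retained 219 and 181).

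Opposite in sign were the *Snhg1* introns of 256 and 238 nucleotides. At the former the spliced path was 868 (A) and 668 (B), with the retained path at 87 and 84 and a log2 ratio of -0.33. At the latter the spliced path was 556 and 429, with the retained path at 133 and 130 and a log2 ratio of -0.34. In both the spliced path was 1.30-fold lower in set B while the retained path was within 1.04-fold. The remaining introns were at 0.16 (211 nucleotides), 0.05 (186 nucleotides) and -0.22 (226 nucleotides), with intensities from 76 to 1351. Over the 7 introns the spliced path was lower in set B in 5 and the retained path in 5.

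**Figure D3:**
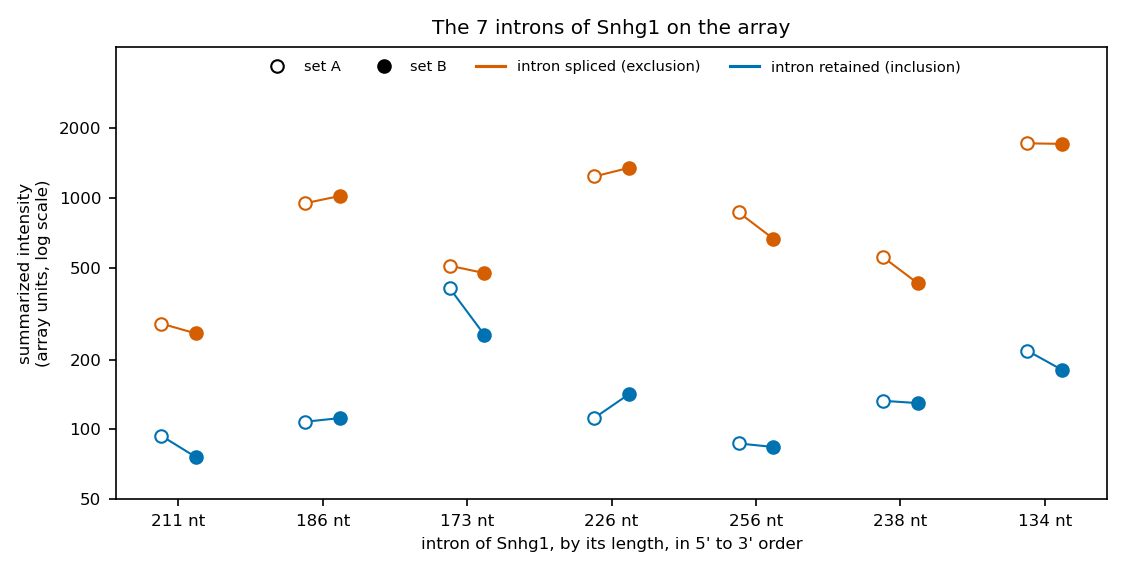
Summarized intensity (array units, log scale) of the spliced and retained paths of the 7 *Snhg1* introns in set A (open) and set B (filled), in 5' to 3' order and labelled by intron length. The retained path of the 173-nucleotide intron goes from 407 to 256, while at the 256- and 238-nucleotide introns it is the spliced path that is lower in set B.

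*Polr2g* encodes a subunit of RNA polymerase II that, with its partner subunit, forms the stalk of the enzyme. Its cassette exon of 160 nucleotides, within 8869000 to 8872734, had exclusion at 88 (A) and 112 (B) and inclusion at 841 and 738. The log2 ratio was 0.54 (1.45-fold). The exclusion path was among the dimmer ones of the interval, and the length is not a multiple of 3. With 50 added to every intensity, which damps changes of dim paths, the ratio was 0.41.

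*Taf6l*, a subunit of a histone acetylase complex, had an alternative end at 0.30, with exclusion at 270 and 300 and inclusion at 143 and 129 in sets A and B. Its retained intron was at 0.09 and its alternative start at -0.16, with intensities from 86 to 935. *Trpt1*, a transferase of tRNA splicing, had a cassette exon of 170 nucleotides at 0.27, where exclusion was 329 and 399 and inclusion 238 and 239. The RNA 3'-end processing factor *Cpsf7*, listed as 5730453I16Rik, had events of opposite sign. Its cassette exon of 66 nucleotides was at 0.31, with exclusion at 297 and 323 and inclusion at 198 and 174, and its alternative 5' splice site of 26 nucleotides was at -0.25, with intensities from 261 to 349. Smaller values came from *Prpf19*, a ubiquitin ligase of the spliceosome (alternative 3' splice site, 0.11, intensities 815 to 1550). The alternative end of AI846148, in RefSeq *Spindoc*, a partner of a histone-reading spindlin, was at 0.18 with intensities from 232 to 451.

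In the group of membrane traffic and synapse, with 14 events in 7 genes, 1 event was past 0.5 and 8 ratios were above 0. *Stx3* encodes a SNARE protein of the plasma membrane that takes part in vesicle fusion, and both of its events were above 0. At its alternative end, within 11849607 to 11859879, exclusion was 843 (A) and 951 (B) and inclusion 331 and 252. The log2 ratio was 0.57 (1.48-fold), with inclusion 1.31-fold lower and exclusion 1.13-fold higher in set B. Its cassette exon of 46 nucleotides had exclusion at 429 and 399 and inclusion at 157 and 113, for a log2 ratio of 0.37 with inclusion 1.39-fold lower in set B. The study's gel assay for the alternative end used 3 primers, shown here to identify the transcript.
*Stx3* primer 1: ccagccatcttcacttctgg
*Stx3* primer 2: ctgtgtgcatgacattcaactct
*Stx3* primer 3: ctcaatgcggtcaatcatgg

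*Mark2* encodes a kinase that acts on microtubule-associated proteins and cell polarity, and had 4 events. Its cassette exon of 45 nucleotides was at 0.38, with exclusion at 98 (A) and 106 (B) and inclusion at 571 and 476. The others were at 0.11 (alternative start), 0.08 (cassette exon of 162 nucleotides) and -0.07 (cassette exon of 27 nucleotides), with intensities from 205 to 1161. *Rab3il1*, an exchange factor for Rab proteins, had an alternative start at 0.33, where exclusion was 922 and 1156 and inclusion was 378 in both sets. A cassette exon of 219 nucleotides was at 0.14 and its alternative end at -0.17, with intensities from 155 to 527.

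The rest of this group differed less between the sets. *Syt7*, a calcium sensor of vesicle fusion, was at 0.19 for its cassette exon of 132 nucleotides and at -0.03 for its alternative start, with intensities from 289 to 2717. The Golgi SNARE *Stx5a* was at -0.23 for its alternative start (249 to 431). *Rtn3*, which shapes the endoplasmic reticulum, was at -0.16 for a complex event (460 to 3108). *Chrm1*, a muscarinic acetylcholine receptor of the forebrain, was at -0.04 for its cassette exon of 92 nucleotides (749 to 1799).

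Both genes of lipid metabolism had ratios above 0 in all 4 of their events, against 64.3% of all interval events and 55.3% of the table. *Bscl2* encodes seipin, a protein of the endoplasmic reticulum needed to form lipid droplets, and its 3 events lie near its 5' end. At 1 alternative start, within 8914065 to 8915597, exclusion was 308 (A) and 359 (B) and inclusion 743 and 616, for a log2 ratio of 0.49. A retained intron of 537 nucleotides inside the same span had its spliced path at 227 and 267 and its retained path at 168 and 151, for a ratio of 0.39. The other alternative start was at 0.25, with intensities from 169 to 726. These events overlap or adjoin each other and are not independent. In each of them exclusion was higher and inclusion lower in set B. *Fads1*, a desaturase that makes polyunsaturated fatty acids, was at 0.15 for a cassette exon of 111 nucleotides, with intensities from 89 to 2801.

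RefSeq gives 3 start windows for *Bscl2*, all on the plus strand of GRCm38.p6, and they are printed because its events concern the choice between starts. Window 1 is chr19:8837217-8837516, window 2 is chr19:8839078-8839377 and window 3 is chr19:8840253-8840552. The first lies 1861 bases before the second, which lies 1175 bases before the third. Capitals mark CCAAT, or ATTGG on the other strand, and GGGCGG. They differ in composition: window 1 held 3 CCAAT matches and 16 CpG dinucleotides, window 2 no match and 3 CpG, and window 3 had 1 GGGCGG match and 5 CpG. Which start each path of the array stands for is not named in the table, so no ratio is tied to a window.
*Bscl2* window 1: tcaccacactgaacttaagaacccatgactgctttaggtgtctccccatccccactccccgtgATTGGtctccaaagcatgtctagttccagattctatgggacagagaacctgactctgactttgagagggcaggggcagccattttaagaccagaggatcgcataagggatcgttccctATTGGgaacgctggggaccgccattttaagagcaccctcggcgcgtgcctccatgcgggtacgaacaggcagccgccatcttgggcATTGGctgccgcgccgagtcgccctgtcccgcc
*Bscl2* window 2: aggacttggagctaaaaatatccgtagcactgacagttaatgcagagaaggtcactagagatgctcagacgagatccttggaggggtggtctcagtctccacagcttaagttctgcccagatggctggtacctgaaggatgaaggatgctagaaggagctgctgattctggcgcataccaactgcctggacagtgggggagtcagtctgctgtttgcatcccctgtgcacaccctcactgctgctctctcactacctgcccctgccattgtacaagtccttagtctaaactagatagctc
*Bscl2* window 3: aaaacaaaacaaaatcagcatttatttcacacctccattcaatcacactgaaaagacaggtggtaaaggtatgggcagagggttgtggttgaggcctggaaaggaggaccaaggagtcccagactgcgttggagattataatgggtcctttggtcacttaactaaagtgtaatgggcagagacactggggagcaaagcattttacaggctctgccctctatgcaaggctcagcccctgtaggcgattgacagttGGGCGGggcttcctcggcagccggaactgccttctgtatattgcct

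The 6 genes of translation and protein modification had no event past 0.5, with 5 of 8 ratios above 0. *Fkbp2*, *Ganab* and *Ttc9c* (the last of another role) are given in full because the study took them to gel assays. The study picked events for these assays from the most extreme of its own array scores, which were not used here. By the ratio used here the same events were not extreme, at rank 4518 (*Fkbp2*), 9842 (*Ganab*) and 6557 (*Ttc9c*) by size. A small ratio here thus does not mean that the study's array score was small. The study reported significant gel differences between the congenic genotypes for *Fkbp2*, *Ganab*, *Stx3* and *Tmem138*, and does not name *Ttc9c* among them. With archived heterozygous congenic samples it found the difference again for *Ganab* and *Tmem138*, but not for *Fkbp2* or *Stx3*. For all genes with a gel difference it reported no significant difference between mice with and without an edited *Nxf1* allele. No gel was analysed here. *Fkbp2*, a prolyl isomerase of the endoplasmic reticulum, had an alternative 3' splice site of 35 nucleotides at 7053631 to 7054883. Exclusion was 713 (A) and 759 (B) and inclusion 990 and 1251, for a log2 ratio of -0.25, in which inclusion was 1.26-fold higher in set B. *Ganab*, the catalytic subunit of glucosidase II that trims glycans on new glycoproteins, had a cassette exon of 66 nucleotides with exclusion at 186 and 161 and inclusion at 237 and 194. Both paths were lower in set B, by like amounts, and the log2 ratio was 0.08. *Ttc9c*, a tetratricopeptide repeat protein, had a retained intron of 334 nucleotides with the spliced path at 151 and 113 and the retained path at 1693 and 1429, for a log2 ratio of -0.17. The gel primers of these genes are shown to identify the transcripts. Those of *Fkbp2* are listed by the study under another event name than that of the table, and were taken to belong to the 35-nucleotide event because it is the only *Fkbp2* event there.
*Fkbp2* primer 1: gcgcagaagtgacagcac
*Fkbp2* primer 2: tcaaactccgtcccatcttc
*Ganab* primer 1: ggacttatggcctttgagca
*Ganab* primer 2: ccttttcctgggtctcctct
*Ttc9c* primer 1: aaaggagcgaagcctttttg
*Ttc9c* primer 2: gtagcgctggtttccttcct

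In the same group, *Stip1*, a co-chaperone that links Hsp70 and Hsp90, had an alternative end at 0.29, with exclusion at 1458 (A) and 1558 (B) and inclusion at 242 and 212. *Dnajc4*, a J-domain protein, had an alternative 3' splice site of 48 nucleotides at 0.27, with exclusion at 2142 and 2049 and inclusion at 175 and 139. The cassette exon of 162 nucleotides was at 0.05, with intensities from 406 to 720. *Ubxn1*, a cofactor of the p97 ATPase, had retained introns at 0.09 and -0.08 (69 to 632). *B3gat3*, which completes the sugar linker of proteoglycans, was at -0.13 for its alternative end (179 to 1117).

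The other genes of transport and mitochondria gave 1 ratio past 0.25 in each of 2 genes. *Slc3a2*, the heavy chain of several amino acid transporters, had an alternative start at -0.29, with exclusion at 475 (A) and 418 (B) and inclusion at 381 and 411. *Sdhaf2*, listed as 0610038F07Rik, helps to assemble succinate dehydrogenase. Its alternative end was at 0.31, with exclusion at 992 and 1124 and inclusion at 165 and 151, and its alternative 5' splice site of 150 nucleotides was at -0.12, with intensities from 126 to 277. *Slc22a8*, an organic anion transporter, was at 0.17 for a cassette exon of 155 nucleotides (60 to 475), and was the only 1 of the 8 *Slc22a* genes that RefSeq places in the segment to have an event. The genes of DNA repair were both below 0 for complex events, *Fen1*, a nuclease of DNA replication, at -0.21 (109 to 136) and *Ddb1*, an adaptor of Cul4 ubiquitin ligases, at -0.04 (130 to 1218).

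Among the 12 remaining genes, with 16 events, 1 event was past 0.5 and 11 ratios were above 0. It was in *Ahnak*, which encodes a giant scaffold protein beneath the plasma membrane. A cassette exon of 149 nucleotides in it, within 9111748 to 9151065, had exclusion at 228 (A) and 298 (B) and inclusion at 93 and 84. The log2 ratio was 0.53 (1.45-fold), with most of it in the exclusion path, and both inclusion values were low for the array, where the lowest intensity was 43. The alternative end of *Ahnak* was at -0.13, with intensities from 88 to 283. *Vegfb*, a growth factor, was at 0.24 for an alternative 3' splice site of 100 nucleotides (723 to 1570).

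Of the *Ms4a* family, 4 of the 21 genes that RefSeq places in the segment had events, 5 in all. *Ms4a7*, found in macrophages, had a cassette exon of 57 nucleotides at 0.32, with exclusion at 112 (A) and 110 (B) and inclusion at 117 and 92. Its retained intron was at 0.08 (87 to 268), the alternative end of *Ms4a8a* at 0.19 (119 to 169), that of *Ms4a1*, which encodes the B cell protein CD20, at 0.09 (72 to 131) and that of *Ms4a6c* at -0.20 (51 to 330). In 4 of the 5 events both paths were higher in set B, as they were in 34.3% of all interval events and 29.0% of the table, and the 5 events, with intensities from 51 to 330, are too few and too dim to set the family apart. The mean log2 change of the paths, set B over set A, was 0.48 for *Ms4a6c*, 0.33 for *Ms4a1*, 0.33 for the intron of *Ms4a7* and 0.23 for *Ms4a8a*, against -0.19 for the cassette exon of *Ms4a7*. The leukocyte marker *Ptprc*, on another chromosome, was also higher on both paths (559 and 667, 280 and 301 in sets A and B, mean change 0.18). The T cell gene *Cd6* differed by event. In its dimmer event both paths were higher in set B (121 and 136, 166 and 182, mean change 0.15). In its brighter event both paths were lower in set B (3308 and 2837, 866 and 757, mean change -0.21). The part of leukocyte RNA in these values was not tested.

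*Cd6*, a receptor of T cells, was at 0.04 and -0.03 for cassette exons of 117 and 303 nucleotides, with intensities from 121 to 3308. *Lgals12*, a galectin of fat cells, was at 0.12 for its retained intron (107 to 182). *Tmem132a*, a membrane protein of neural tissue, was at 0.01 for its retained intron (288 to 398). The uncharacterized 2700081O15Rik was at 0.02 for its alternative start (139 to 838), and the transcript uc008gkm-1 at 0.04 and -0.19 for its retained introns (89 to 341).

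A further measure, the mean log2 change of both paths, shows where an event was brighter or dimmer as a whole in set B, whatever its balance of forms. Its size was over 0.25 in 11 of the 70 events, 15.7%, close to the 15.0% of the table. Of these, 4 were higher in set B (*Dnajc4*, *Ms4a1*, *Ms4a7* and *Ms4a6c*) and 7 lower. The lower ones were the 173-nucleotide intron of *Snhg1* at -0.39, the 168-nucleotide intron of *Cybasc3* at -0.37, *Ttc9c* at -0.33, *B3gat3* at -0.32, the 27-nucleotide exon of *Mark2* at -0.31, the 46-nucleotide exon of *Stx3* at -0.29 and *Chrm1* at -0.27. The median absolute mean change was 0.17 in the interval, against 0.12 on the rest of chromosome 19 and 0.12 over the table, and the medians of single chromosomes ran from 0.106 to 0.128. The chromosome medians come from sets much larger than the 70 interval events and so scatter less. Averaged within genes first, the medians were closer, 0.119 over the 42 interval genes and 0.106 over all genes. Both paths were higher in set B in 24 of the 70 events (34.3%, 29.0% over the table) and both lower in 23 (32.9%, 29.5% over the table).

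**Figure D4:**
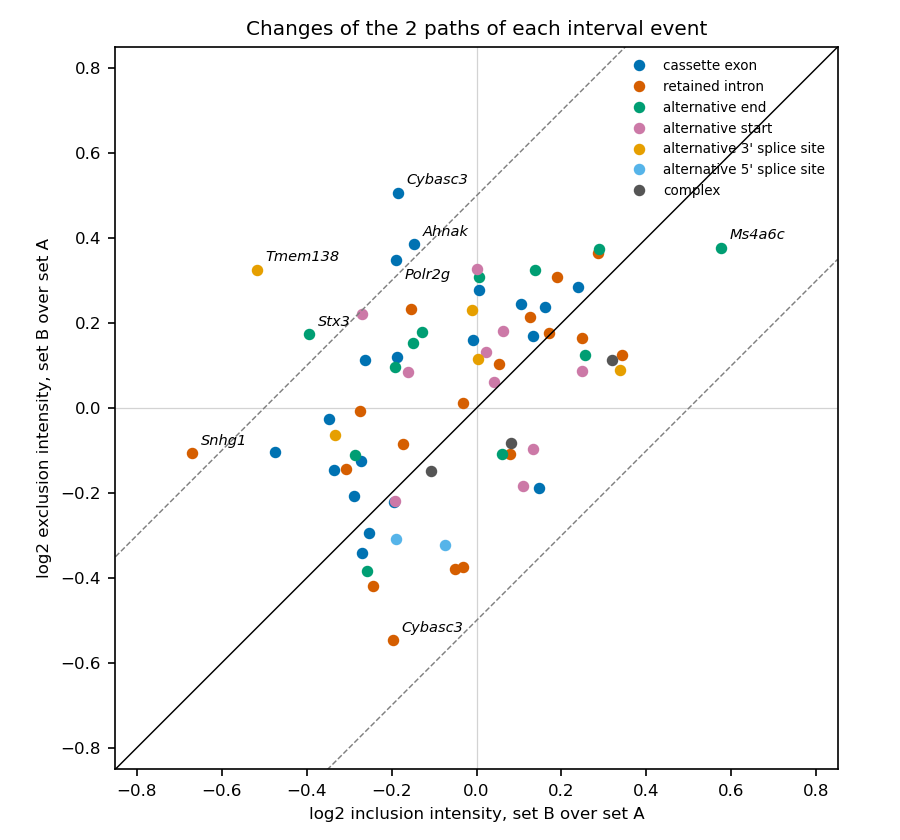
Log2 change of the inclusion path (horizontal) and the exclusion path (vertical), set B over set A, for the 70 events, coloured by type. On the solid line both paths change alike and the log2 ratio is 0, and dashed lines mark ratios of 0.5 and -0.5. The 6 events above the upper dashed line lie on the left, where inclusion is lower in set B, and *Ms4a6c* lies farthest to the right, with both paths higher in set B.

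**Figure D5:**
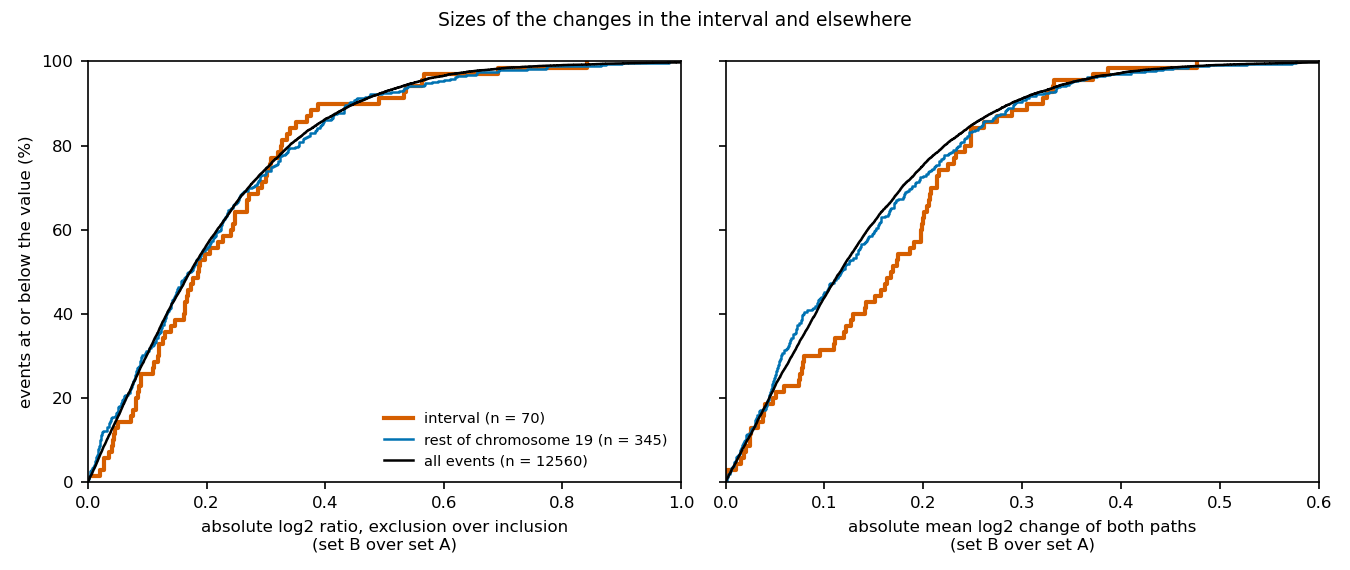
Share of events (%) at or below each absolute log2 ratio (left) and each absolute mean log2 change of both paths (right) for the 70 interval events, 345 events of the rest of chromosome 19 and 12560 events of the table that have an exclusion and an inclusion path. The curves nearly coincide on the left, and on the right the interval curve lies below the others between about 0.1 and 0.2, with a median of 0.17.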

How the data were processed

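Brain RNA of 6 mice was extracted with Trizol and purified on RNeasy columns, labelled with an Affymetrix kit and hybridized to MJAY arrays. Affymetrix Power Tools is named in the submitters' processing notes. The authors' deposited table gives, per path, summarized exclusion and inclusion intensities of sets A and B as whole numbers, pooled over arrays. Normalization, background correction and genome build are not given in the sources used here. The same intensities are listed for a paired and a standard comparison, and the paired columns were used. The authors' separation scores and q-values, also deposited, were not used.

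Paths were joined by event name, and an event took the path with the larger absolute log2 ratio of the intensities. No filter or pseudocount was applied. An absolute log2 ratio over 0.5 set the call, and 0.25 the mean change and the events whose 4 intensities are printed. All genes of the interval are named. Members, gene roles and thresholds were chosen with earlier results of these data known. The table used here holds no value per mouse, so no test was made, and the number of arrays limits the precision. Gene names, neighbours and promoter windows are from RefSeq (GRCm38.p6), where 41 of 42 genes matched, 4 of them by an older symbol. Primers are the study's. Steps were tested on simulated data. Python 3.11.15, numpy 2.4.6, pandas 2.3.3 and matplotlib 3.10.9 were used. Alternatives were other thresholds, 50 added to intensities, a minimum of 100, means over paths, events that overlap the bounds and leaving out the genes taken to gel assays.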

Additional observations from a re-analysis of the deposited data

How the results depend on the processing

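Of the 70 interval events, 6 were past 0.5. At a threshold of 0.6 the count was 2 (*Tmem138* and *Cybasc3*; 3.41% of the table), and with 50 added to each intensity it was also 2 (3.18% of the table). In the latter setting 69 of the 70 signs were kept, and the ratios of *Stx3* (0.50), *Snhg1* (0.48), *Ahnak* (0.42) and *Polr2g* (0.41) no longer passed. The count was 7 at a threshold of 0.4 (14% of the table), 4 of 53 events with all intensities at 100 or more (7.55%, 6.5% of the table), and 4 of 64 (6.25%, 7.32% of the table) without the 5 genes taken to gel assays, an alternative chosen after seeing the data. It stayed at 6 with means over paths (7.04% of the table) and with events that overlap the bounds. Neither setting could change it, as both paths of each interval event gave the same ratio and no event crossed the bounds. The median absolute log2 ratio lay between 0.15 and 0.19 and the share above 0 between 62.3% and 65.7% in the settings run. No paired analysis was possible because the table used here holds no value per mouse, and leaving out single mice was not possible for the same reason. Dim paths limit the ratios: past 0.5 lay 10.5% of table events with a dimmest intensity under 100, and 3.78% of those at 400 or more.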
